A study of Mus musculus with 4 samples.

Results

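The 7 genes described here, Ms4a3, Ms4a4b, Ms4a4c, Ms4a6b, Ms4a6c, Ms4a6d and Ms4a7, belong to the MS4A family and are members taken by gene symbol out of 22180 genes measured. They were chosen by their log2 differences between day 8 after 5-fluorouracil (5FU) and basal in these same arrays, so those differences are a description and carry no test. The samples were LSK cells, the lineage-negative, Sca-1-positive and c-Kit-positive fraction of mouse bone marrow that contains stem cells and multipotent progenitors. RNA was measured on 4 Affymetrix arrays with 1 array in each group, so no value has a replicate error. Ctrl and AMKO mice were each sampled at basal, which is day 0, and on day 8 after a single 5FU injection of 150 mg/kg. All mice were C57/B6 males of 4 months per the labels. The labels do not explain AMKO, which is used as a genotype label, nor how many mice went into an array. They do not settle whether basal mice received an injection, and name no strain or allele other than C57/B6 and AMKO.

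MS4A proteins cross the membrane several times and act mostly beside other receptors at the surface of blood cells. The best known are CD20, encoded by Ms4a1, on B cells, and the beta chain of the high-affinity IgE receptor, encoded by Ms4a2, on mast cells and basophils. Ms4a3 is a gene of granulocyte-monocyte progenitors, the Ms4a6 genes and Ms4a7 are best known in monocytes and macrophages, and Ms4a4b was described in T cells. 5FU kills dividing cells, after which the surviving stem and progenitor cells of the marrow proliferate to rebuild it.

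The genes lie in 1 cluster on chromosome 19, with other genes between them, and 6 of the 7 had an entry in the RefSeq promoter table (GRCm38.p6). Ms4a6d had none, so its promoter was not examined. The 250 bases before the start site are shown for the genes on which the results turn, the pair that was higher after 5FU in both genotypes (Ms4a6c and Ms4a6b) and the pair with the largest difference between genotypes (Ms4a3 and Ms4a4c). Capitals mark matches to GAGGAA, the PU box bound by the myeloid and B-cell factor PU.1, or to TTNCNNAA, a loose form of the C/EBP motif, each searched on both strands. The lines read 5′ to 3′ on the gene's own strand, from chr19:11469118-11469367 (plus) for Ms4a6c, chr19:11518309-11518558 (plus) for Ms4a6b, chr19:11640852-11641101 (minus) for Ms4a3 and chr19:11407411-11407660 (plus) for Ms4a4c.
Ms4a6c: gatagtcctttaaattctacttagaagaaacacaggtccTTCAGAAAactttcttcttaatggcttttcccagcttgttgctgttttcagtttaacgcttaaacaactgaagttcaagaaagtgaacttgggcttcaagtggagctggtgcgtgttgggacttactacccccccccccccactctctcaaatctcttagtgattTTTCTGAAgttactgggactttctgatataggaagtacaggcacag
Ms4a6b: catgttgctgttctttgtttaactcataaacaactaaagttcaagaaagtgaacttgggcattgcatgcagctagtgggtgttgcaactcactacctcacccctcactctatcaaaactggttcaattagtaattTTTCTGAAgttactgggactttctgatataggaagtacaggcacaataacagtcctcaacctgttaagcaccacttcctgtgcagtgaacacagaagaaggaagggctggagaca
Ms4a3: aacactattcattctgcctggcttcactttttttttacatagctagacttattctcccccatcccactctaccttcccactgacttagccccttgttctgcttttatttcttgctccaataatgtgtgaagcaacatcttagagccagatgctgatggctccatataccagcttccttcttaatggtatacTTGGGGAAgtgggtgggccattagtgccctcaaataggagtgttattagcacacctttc
Ms4a4c: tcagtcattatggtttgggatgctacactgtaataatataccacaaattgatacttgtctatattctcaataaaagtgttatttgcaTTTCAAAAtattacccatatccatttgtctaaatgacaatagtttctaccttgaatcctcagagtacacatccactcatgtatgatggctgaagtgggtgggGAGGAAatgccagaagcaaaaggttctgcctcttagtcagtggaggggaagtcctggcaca

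Ms4a6c and Ms4a6b share an unbroken run of 48 bases, between 49 and 2 bases before the start of Ms4a6c and between 118 and 71 bases before that of Ms4a6b.
Shared run: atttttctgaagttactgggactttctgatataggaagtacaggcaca
Whether Ms4a6d has this run was not examined. Between the other member promoters with an entry the longest shared run was 20 bases, for Ms4a4c and Ms4a4b. It was 12 bases or shorter for the remaining pairs. The C/EBP letters were found in each of the 7 promoters of the 6 members with an entry (Ms4a7 has 2). They were found in 36.8% of the 32851 promoters in the table. The 1 match in Ms4a6b and 1 of the 2 in Ms4a6c lie in the shared run. The PU box was found in Ms4a4c and Ms4a4b and in 23.3% of all promoters. GGAANNGAA, the form of a composite element of PU.1 and IRF factors, was found in 0 of the member promoters and in 6.99% of all. No match overlaps another motif in the sequences shown. The matches are letters in a window and were not measured as binding.

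Each of the 20 Ms4a genes measured was represented by 1 probe set of its own, and 0 probe sets named several genes with an Ms4a gene among them. Whether probes of close relatives such as Ms4a6b, Ms4a6c and Ms4a6d bind each other's RNA could not be read from these files, so values of the Ms4a6 genes may share signal. Values are on the log2 scale and ranged from 1.99 to 13.43. Each probe set has its own brightness, so values of single genes are not ranked against each other. The summed levels of marker lists given below do mix probe sets, and serve only to compare arrays within a list. A value under 5.475, the median of all values and called the floor below, is treated as low, and differences that start there have an uncertain size. Of the 7 genes, 5 reached the floor in at least 1 array, against 14061 of 22180 genes in all. Ms4a4c and Ms4a6d reached it in the Ctrl day 8 array alone, and Ms4a3 in both day 8 arrays.

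The Ctrl day 8 array stood apart from the other arrays before any MS4A gene is considered. Its markers of mature blood cells were high, for instance the neutrophil list with 12 of 12 genes above the floor, against 3 in each basal array and 6 in AMKO at day 8. It had a value of 7.65 for Xist, the RNA of the inactive X chromosome in females, against 3.97 to 4.41 in the other arrays. The Y-linked genes Eif2s3y, Kdm5d and Uty had values between 7.45 and 9.36 in all 4 arrays. In Xist and in the blood cell markers, the library labelled Ctrl day 8 goes against its label of LSK cells from males. Every Ctrl difference after 5FU rests on this array, while the AMKO differences do not use it. The sort marker Kit lay between 11.08 and 11.87 in all arrays, and the 10 measured sort and stem cell markers were above the floor in each. Their median difference after 5FU was -0.675 in Ctrl and -0.35 in AMKO, with 3 of 10 at least 2-fold lower and 1 higher in Ctrl, and 1 lower in AMKO. Of all kept genes, 4.46% were lower and 5.02% higher in Ctrl, and 3.55% lower in AMKO. Kit differed by -0.76 and -0.71, the stem cell receptor Procr by -1.64 and -0.70, and Hoxb5, a stem cell transcription factor, by -1.30 and -1.07. Cd34, the 1 marker at least 2-fold higher in Ctrl, differed by 1.03 and 0.64, and Mecom by -0.49 and -0.04. The part of these markers in the differences of the MS4A genes was not tested. Ly6a, the gene of Sca-1, was not measured by a probe set of 1 gene. In bulk samples, fewer cells of a type and less RNA per cell cannot be told apart.

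After 5FU, Ms4a6c and Ms4a6b were higher in both genotypes, whereas Ms4a3, Ms4a4c and Ms4a6d were at least 2-fold higher in Ctrl and not in AMKO. In Ctrl, 5 of the 7 genes were at least 2-fold higher, where 5.02% of all kept genes were, and none was 2-fold lower (4.46% of all). In AMKO, 2 of the 7 were at least 2-fold higher, where 4.69% of all genes were, and none was lower (3.55% of all). The median difference of the 7 genes was 1.69 in Ctrl and 0.18 in AMKO. Over the 5 members kept it was 3.1 and 0.6, beside 0.01 and 0.03 for all genes kept. These shares stand beside genes chosen for their differences, so nothing is read from them. When arrays were centred on their medians, the AMKO median of all genes went up to 0.15 and the share of higher among its 2-fold calls went from 56.9% to 71.5%, with 2 members again called.

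**Figure D1:**
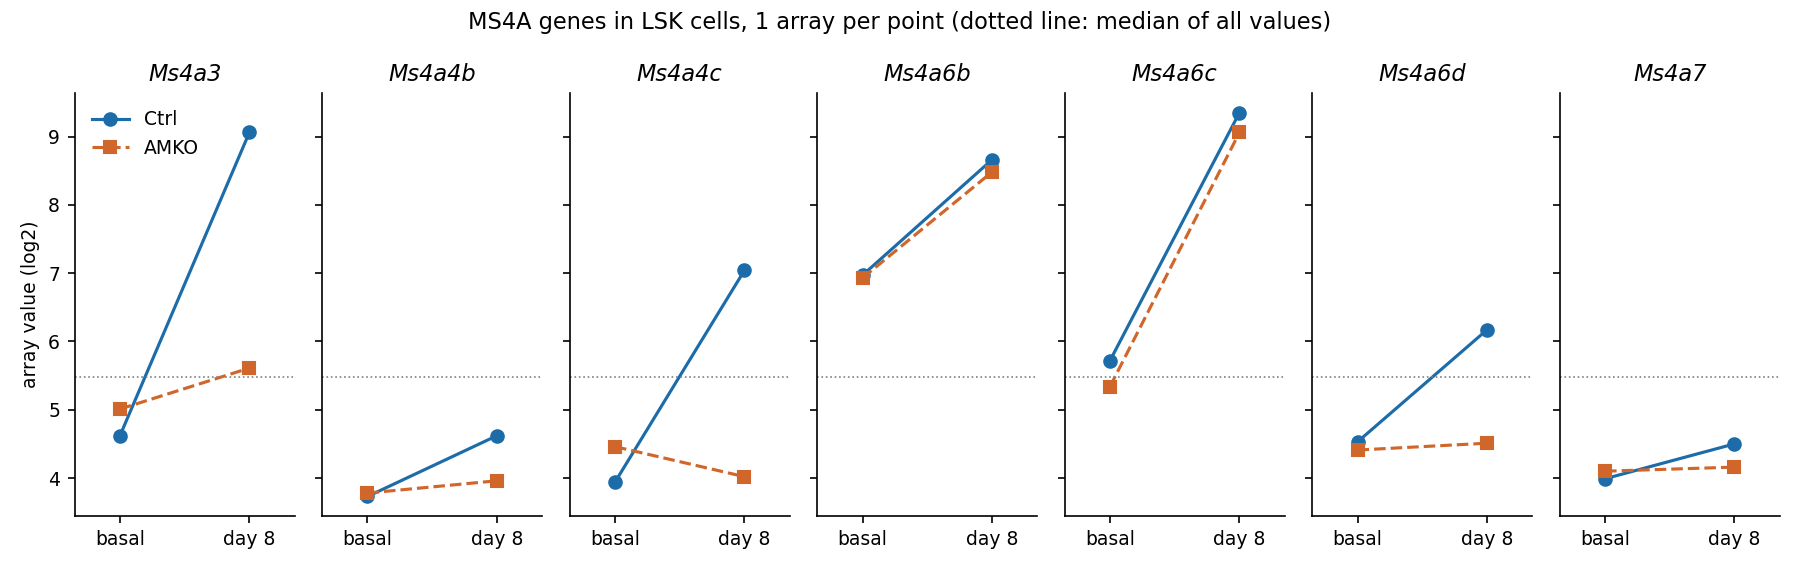
Array value (log2) of each of the 7 genes at basal and at day 8 after 5FU, with Ctrl as blue circles and AMKO as orange squares, 1 array per point and the floor of 5.475 as a dotted line. Both genotypes lie together for Ms4a6b and Ms4a6c at each time, while at day 8 Ms4a3 is at 9.06 in Ctrl and 5.61 in AMKO.

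Ms4a6c, a gene best known in monocytes and macrophages, had values of 5.72 in Ctrl basal, 5.34 in AMKO basal, 9.35 in Ctrl day 8 and 9.06 in AMKO day 8. The day 8 arrays were both far above the basal ones, and the genotypes lay within 0.38 of each other at each time. The difference was 3.63 in Ctrl (12.4-fold) and 3.72 in AMKO (13.2-fold), which placed it 55th and 6th from the highest among all 14061 genes kept. The AMKO basal value lies just under the floor and the Ctrl basal value just above it.

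Ms4a6b, its neighbour in the cluster, was above the floor in all 4 arrays, with 6.97 in Ctrl basal, 6.93 in AMKO basal, 8.66 in Ctrl day 8 and 8.48 in AMKO day 8. It was the only one of the 7 measured above the floor on every array. Its differences were 1.69 in Ctrl (3.23-fold) and 1.55 in AMKO (2.93-fold), ranks 248 and 151 from the highest. Both basal arrays again lay below both day 8 arrays, and the genotypes differed by at most 0.18 at either time.

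Ms4a6d, the remaining Ms4a6 gene among the members, behaved unlike its relatives. It had values of 4.53 in Ctrl basal, 4.41 in AMKO basal, 6.17 in Ctrl day 8 and 4.51 in AMKO day 8. The Ctrl day 8 array alone was high, and the other arrays lay within 0.12 of each other, all under the floor. The difference was 1.64 in Ctrl (3.12-fold) and 0.10 in AMKO.

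Ms4a3, which encodes the HTm4 protein of granulocyte-monocyte progenitors, had the largest Ctrl difference of the 7 genes. Its values were 4.62 in Ctrl basal, 5.01 in AMKO basal, 9.06 in Ctrl day 8 and 5.61 in AMKO day 8. The Ctrl day 8 value stood far above the other arrays, and AMKO day 8 was the next highest. The difference was 4.44 in Ctrl (21.7-fold), the 30th from the highest of all genes, and 0.60 in AMKO (1.52-fold), the 2067th. Both basal values were under the floor.

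Ms4a4c had values of 3.94 in Ctrl basal, 4.46 in AMKO basal, 7.04 in Ctrl day 8 and 4.02 in AMKO day 8. It was high in the Ctrl day 8 array alone, and in AMKO the day 8 value was below the basal one. The difference was 3.10 in Ctrl (8.57-fold), the 81st from the highest, and -0.44 in AMKO, both from basal values under the floor. This was the only one of the 7 genes whose differences had opposite signs in the genotypes. Against the Ctrl basal array, its AMKO difference was 0.08, so the sign depends on the baseline.

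Ms4a4b and Ms4a7 were under the floor in all 4 arrays. Ms4a4b, described in T cells, had 3.73 and 3.78 in Ctrl and AMKO at basal, and 4.62 and 3.96 at day 8. Ms4a7, a gene of macrophages, had 3.99 and 4.10 at basal and 4.50 and 4.16 at day 8. Neither difference reached 2-fold in Ctrl (0.89 and 0.51) or AMKO (0.18 and 0.06), and values this low have no reliable order.

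**Figure D2:**
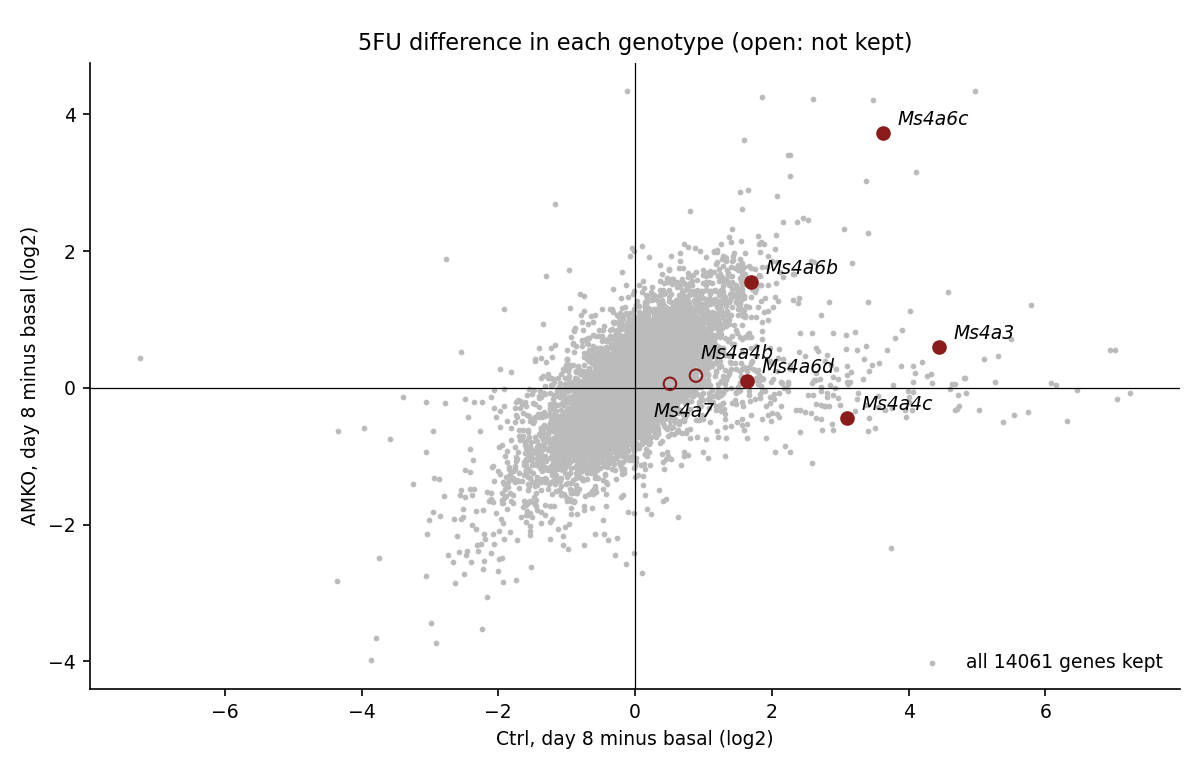
Difference between day 8 and basal (log2) in Ctrl on the horizontal axis and in AMKO on the vertical axis, with the 14061 kept genes in grey, the 5 members kept as filled points and the 2 under the floor as open points. Ms4a6c (3.63 and 3.72) and Ms4a6b (1.69 and 1.55) lie near equal values, while Ms4a3 (4.44 and 0.60) and Ms4a4c (3.10 and -0.44) lie near the horizontal axis.

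AMKO and Ctrl were also compared at each time. At basal, 0 of the 7 genes differed by 2-fold in either direction, where 0.228% of all genes passed that size upwards in AMKO and 0.697% downwards. The basal differences ran from -0.38 for Ms4a6c to 0.52 for Ms4a4c, with a median of 0.05. At day 8, 3 of the 7 genes were at least 2-fold lower in AMKO, where 2.63% of all genes were, and 0 were higher (0.74% of all). These 3 were Ms4a3 with a difference of -3.45, Ms4a4c with -3.02 and Ms4a6d with -1.66. Those of Ms4a6c (-0.29) and Ms4a6b (-0.18) were small, and all 7 genes had a lower value in AMKO, with a median of -0.66. This comparison shares the Ctrl day 8 array with the Ctrl 5FU difference, so it is no separate evidence on that array.

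Subtracting the Ctrl 5FU difference from that of AMKO gave -3.84 for Ms4a3, -3.54 for Ms4a4c and -1.54 for Ms4a6d, against 0.09 for Ms4a6c and -0.14 for Ms4a6b. By this measure 3 of the 7 genes were at least 2-fold lower, where 2.94% of all genes were, and 0 were higher (2.57% of all). With 1 array in each group, whether the genotypes' responses differ was not tested.

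The other measured genes of the family were examined in the same way. Of 13 further Ms4a genes, 2 were at least 2-fold higher in Ctrl and 0 in AMKO, none was 2-fold lower in either, and the medians were 0.00 and -0.05. Ms4a1, the gene of CD20, had 4.14 and 4.10 at basal and 5.77 and 4.35 at day 8 in Ctrl and AMKO. It was thus above the floor in the Ctrl day 8 array alone, with a difference of 1.63 in Ctrl and 0.25 in AMKO. Ms4a4a, the second of them, was under the floor in all arrays, with differences of 1.16 and -0.09.

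Ms4a2, the IgE receptor beta chain, had values between 3.65 and 3.71, all under the floor. Ms4a15 was above the floor in all 4 arrays (6.01 to 6.14) with differences of 0.10 and -0.08, and Ms4a10 passed through the AMKO day 8 array at 5.50. The remaining Ms4a8a, Ms4a18, Ms4a20, Ms4a19, Ms4a13, Ms4a5, Ms4a14 and Ms4a4d were under the floor throughout, with differences between -0.39 and 0.68. Of the 20 Ms4a genes measured, 7 were at least 2-fold higher in Ctrl, where 3.32% of all 22180 genes were without a floor. In chromosomal order, these 7 all lie from Ms4a1 to Ms4a3, the last Ms4a gene measured. That stretch is set by these genes, most of them members chosen for their differences. It also holds Ms4a5, Ms4a14, Ms4a7, Ms4a4b, Ms4a4d and Ms4a2, which were not 2-fold higher. Ms4a6c and Ms4a6b are next to each other among the measured Ms4a genes. Gm8369, a coding gene placed between those 2 in the RefSeq order, was under the floor in all arrays with differences of 0.45 and -0.26.

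**Figure D3:**
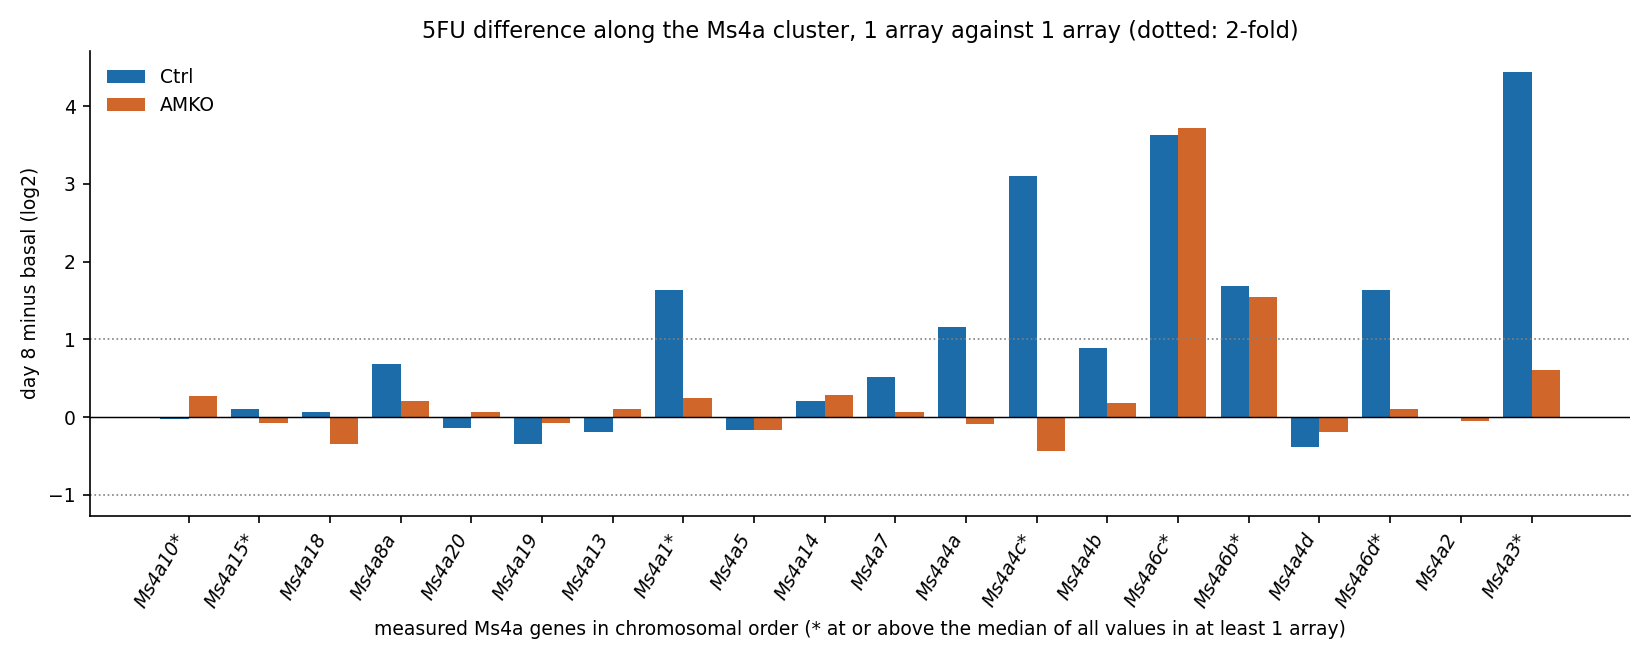
Difference between day 8 and basal (log2) for the 20 measured Ms4a genes in their order on chromosome 19, with blue bars for Ctrl and orange bars for AMKO, 1 array against 1 array, dotted lines at 2-fold and asterisks on the 8 genes kept. Orange bars pass 2-fold for Ms4a6c and Ms4a6b, and blue bars pass it for 7 genes.

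Tmem176a and Tmem176b, membrane proteins related to the MS4A family, were lower after 5FU rather than higher. Tmem176a had values of 10.04 in Ctrl basal and 10.07 in AMKO basal against 9.03 and 9.41 at day 8, differences of -1.01 and -0.66. Tmem176b differed by -0.48 and -0.31, and both genes were far above the floor in every array.

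Fc receptors and their kinases, beside which some MS4A proteins act, formed a list of which 8 of 9 genes were measured. In Ctrl, 5 were at least 2-fold higher, and in AMKO 0 were, where 3.32% and 3.02% of all 22180 genes were without a floor. Fcer1g, the shared signalling chain of Fc receptors, differed by 2.72 in Ctrl and 0.01 in AMKO, the receptor Fcgr3 by 3.11 and 0.06, and the kinase Syk by 1.05 and 0.21. Fcer1a, the IgE-binding chain that Ms4a2 accompanies, was under the floor in all arrays.

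Many myeloid and B-lineage markers were, like Ms4a3, Ms4a4c and Ms4a6d, at least 2-fold higher in Ctrl and not in AMKO. The Ctrl medians of the other lists were smaller. They were 0.615 for T and NK cell, 0.38 for mast cell and basophil and 0.03 for dendritic cell genes. The monocyte and macrophage list had 12 of 15 genes at least 2-fold higher in Ctrl and 1 in AMKO. Among its 13 genes kept, 11 and 1 were. The counts of this and the following lists include genes under the floor. Of all 22180 genes without a floor, 3.32% were at least 2-fold higher in Ctrl and 3.02% in AMKO. The lists were chosen with earlier results known, so nothing is read from these shares. Csf1r, the macrophage colony-stimulating factor receptor, differed by 1.98 and 0.39, Ly6c2, a surface protein of inflammatory monocytes, by 5.49 and 0.71, and the chemokine receptor Ccr2 by 2.48 and 0.46. The 1 gene 2-fold higher in AMKO was Ctss, a lysosomal protease (2.53 and 2.45), which was named after its values were seen. The log2 of the list's summed linear values was 10.01 and 10.21 at basal in Ctrl and AMKO, and 12.45 and 10.76 at day 8; such a sum is weighted to the brightest probe sets of a list.

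For the granulocyte-monocyte progenitor list, to which Ms4a3 belongs by its known expression, 7 of 12 genes were at least 2-fold higher in Ctrl and 0 in AMKO. The granule proteins Mpo (5.03 and -0.33) and Elane (5.75 and -0.35) were far higher in Ctrl, and Prtn3 differed by 0.80 and -0.06. Its summed level was 11.08 and 11.25 at basal and 13.25 and 10.72 at day 8. In the mature neutrophil list 12 of 12 genes passed 2-fold upwards in Ctrl and 2 in AMKO, and the summed level went from 8.86 to 14.55 in Ctrl and from 8.81 to 9.09 in AMKO.

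In the B-lineage list, 8 of 10 genes passed 2-fold upwards in Ctrl and 0 in AMKO, among them Cd79a (2.23 and -0.05), a chain of the B-cell receptor. Cd79b (0.84 and 0.28) did not pass 2-fold, and Vpreb1 differed by -0.43 and 0.29. The summed level of the list went from 9.32 to 12.46 in Ctrl and from 9.32 to 9.41 in AMKO. In the T and NK cell list 4 of 10 genes in Ctrl and 1 in AMKO passed 2-fold upwards, with Cd3e at 0.01 and 0.15 and under the floor throughout, and Cd3g at 1.52 and -0.05. The mast cell and basophil list had 3 of 9 genes at least 2-fold higher in Ctrl and 0 in AMKO, with Gata2 lower in Ctrl (-1.02). The dendritic cell and MHC class II list had 2 of 10 higher in Ctrl and 0 in AMKO, with H2-Aa lower in AMKO (-1.20). The summed levels at day 8 in Ctrl and AMKO were 10.33 and 10.01 for T and NK cells, 10.49 and 10.09 for mast cells and basophils, and 11.99 and 11.66 for dendritic cells. At basal they ran from 8.98 to 9.01, from 10.51 to 10.61 and from 11.46 to 11.92. The brightest T and NK cell gene, Nkg7, weighs most in its sum. Its values in Ctrl and AMKO were 8.01 and 7.82 at basal and 9.87 and 9.59 at day 8. Itgam, a myeloid antigen that lineage depletion usually targets, was 9.93 in Ctrl day 8 and 5.61 to 6.40 elsewhere. The part of these other cells in the Ctrl values of the MS4A genes was not tested. In AMKO, the median differences were 0.24 for monocyte and macrophage, -0.20 for granulocyte-monocyte, 0.055 for neutrophil and 0.07 for B-lineage genes. These lists had 1, 0, 2 and 0 genes at least 2-fold higher in AMKO, and 0 lower. The genes were Ctss (2.45), S100a8 (1.21) and Cxcr2 (1.12). Ms4a6c was 13.2-fold and Ms4a6b 2.93-fold higher there, and the part of other cells in these AMKO values was not tested either.

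**Figure D4:**
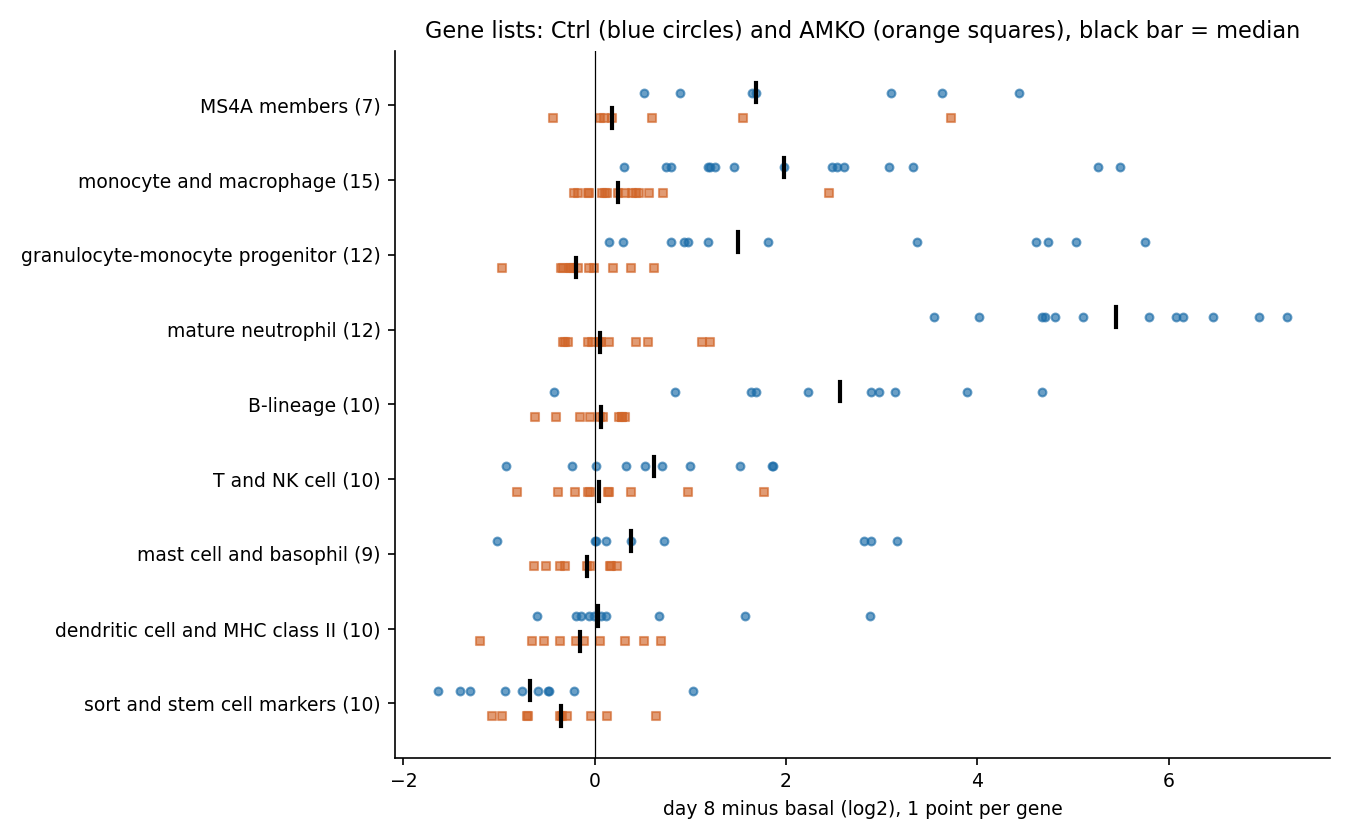
Difference between day 8 and basal (log2) for each measured gene of the MS4A set and of 8 marker lists, with Ctrl as blue circles, AMKO as orange squares, black bars for medians and the number of measured genes in brackets. The Ctrl points of the myeloid and B-lineage lists spread far to the right with medians from 1.495 to 5.445, while in AMKO the medians of the same lists lie between -0.20 and 0.24.

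Genes with a profile close to that of a member were found by the root mean square distance of their log2 values over the 4 arrays, each gene centred on its own mean, among the genes kept. With 4 arrays this is a description, and many genes share any simple profile. For Ms4a6c the nearest were Lgals1, a galectin, at a distance of 0.19, Plac8 at 0.26 and Tespa1 at 0.29. For Ms4a6b they were the oxidoreductase gene Nqo2 at 0.035, the kinetochore gene Ska1 at 0.044 and the transport ATPase gene Atp13a3 at 0.049.

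Ms4a3 was closest to myeloid and B-lineage genes, with the sialic acid-binding receptor Cd33 at a distance of 0.12, Itgam at 0.15 and the B-cell factor Ebf1 at 0.22. Ms4a4c was closest to the receptor gene Pilra (0.068) and to Igll1 (0.10) and Blnk (0.11), both of B-cell development. For Ms4a6d they were Irf4, a lymphoid transcription factor, at 0.027, Il1rn, an interleukin-1 receptor antagonist, at 0.055 and Dntt, the terminal transferase of lymphoid progenitors, at 0.073. Among the members themselves, Ms4a6b and Ms4a6c differed by a distance of 1.04, since the size of their differences was unequal, and Ms4a3 and Ms4a4c by 0.62.

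The 2 members under the floor lay close to many genes of small difference. Ms4a4b was nearest to Snapc1 and Bach2 (0.030 each) and Acer3 (0.034), and Ms4a7 to Nr0b2 (0.023), Prrx2 (0.024) and Donson (0.025). The differences of these 6 genes between day 8 and basal ran from 0.46 to 0.92 in Ctrl and from 0.06 to 0.24 in AMKO.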

How the data were processed

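The table deposited by the authors gives log2 values (a scale read from their range) for 34472 probe sets on each array. How background was corrected and arrays normalized is not stated there. Per the labels' protocols, biotin-labelled cRNA was made from 5.5 µg of total RNA. No further scaling was applied. Array medians were 5.43 to 5.55, and for arrays the number of arrays limits the precision. The platform annotation paired 23521 probe sets with 1 gene, 1814 with several and 9137 with none. For 23328 the symbol was taken through the Entrez identifier from a RefSeq table of GRCm38.p6, whether or not it changed. That table was used for names and gene order. A gene took its probe set with the highest mean, and was kept when its highest value reached the floor, which left 14061 genes.

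Comparisons are log2 differences of 1 array and 1 array, with 2-fold as the size counted and no test. The members and lists were chosen with earlier results of these data known. Named genes were the members, the other MS4A genes, the first 3 genes of each marker list (not all are printed), any sort, lineage or Fc receptor gene, and the 3 nearest genes per member without predicted, noncoding or receptor-family symbols. Of these first genes, Lck was not measured by a probe set of 1 gene, and 1 further item is not reported here. Promoter sequences are RefSeq's. The alternatives were other scalings, probe set rules, floors, sizes and likeness, and 2 added after the data were examined. The counting and likeness steps were tested on simulated data. Python 3.11.15, numpy 2.4.6 and pandas 2.3.3 were used.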

Additional observations from a re-analysis of the deposited data

Results flagged for a closer look

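Ms4a4c and Ms4a4a had 5FU differences of opposite sign in the genotypes, 3.10 in Ctrl and -0.44 in AMKO for Ms4a4c, and 1.16 and -0.09 for Ms4a4a, with at least 1 of them past 2-fold. The difference between genotypes was not tested, since each group is 1 array. The AMKO values and both basal values of these genes lay under the floor of 5.475. With the basal array of the other genotype as baseline, the AMKO difference of Ms4a4c was 0.08, which is no longer of opposite sign. Genes of other families were held to 2-fold in both genotypes for this comparison, and none of those named qualified. Under the looser rule used for Ms4a genes, others would be listed too. Examples are Elane (5.75 and -0.35), Mpo (5.03 and -0.33) and Igll1 (2.89 and -0.62), so the trait is not particular to Ms4a genes.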

How the results depend on the processing

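The counts of members past 2-fold were the same after quantile normalization, median centring, averaging of probe sets and no floor, in all 5 comparisons. With a floor at the 75th percentile (7.32) Ms4a3, Ms4a6b and Ms4a6c were kept. The counts were then 3 higher in Ctrl and 2 in AMKO, 1 lower in AMKO against Ctrl at day 8, and 1 lower by the difference between the genotypes' 5FU differences. Probe sets of several genes named no member, so that alternative gave no further value. With a 1.5-fold size 3 kept members were higher in AMKO, Ms4a3 being the third. With a 3-fold size, 1 member in place of 2 was higher in AMKO, and 2 in place of 3 were lower by the difference between the genotypes' differences. Pearson correlation in place of the distance gave 0 of the 21 nearest genes in common, so these names depend on the measure. Scaling moved no member's difference by more than 0.17 on the log2 scale. With the basal array of the other genotype as baseline, chosen after seeing the data, the largest shift was 0.52 and the counts were again 5 in Ctrl and 2 in AMKO. Without the genes of other blood cell lists, also added later, 4.72% of genes were at least 2-fold higher in Ctrl and 4.69% in AMKO. No paired analysis was possible because each group is 1 array. Values under the floor limit the size of the differences of Ms4a3, Ms4a4c and Ms4a6d, and no array can be left out of a comparison of 1 array with 1 array.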
